A study of Mus musculus with 6 samples.

Results

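Windows of 10 kb in which 5-formylcytosine (5fC) was scarce relative to 5-hydroxymethylcytosine (5hmC) are described here in the genome of E14 cells, a male mouse embryonic stem cell line. A window was taken when it lay on chromosomes 1 to 19, held at least 1000 5hmC reads, and had a 5fC to 5hmC read ratio at most 0.5 times the ratio summed over all windows with that many 5hmC reads. Cytosines above 1000 reads in either table were left out of both, which removed 234 cytosines. The rule found 5826 windows among 97002 with at least 1000 5hmC reads, or 6.01% of them. They are called poor windows below, and the 91176 windows above the threshold are called the other windows. Because this ratio chose the windows, their low ratio and every 5fC level in them are a description and not a result.

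Per the labels, a culture at passage 14 gave 2 libraries of 5fC and 2 of 5hmC, and a second culture, at passage 12, gave 2 more of 5hmC. Libraries of a culture and mark are technical replicates. All cells were grown in medium with serum and leukaemia inhibitory factor on gelatin, and no group was treated or mutated. In Pvu-Seal-seq the enzyme PvuRts1I cuts near a modified cytosine, and the modified fragments are labelled and captured, so that a cut end points to a base. Each table gives a cytosine 1 number of reads for the libraries together, so the spread between replicates is not known and no test was run. The tables held 102305049 5fC reads at 6248342 cytosines and 264008048 5hmC reads at 20807956 cytosines, with at least 2 reads at each. Intervals are 95% Wilson intervals for shares and exact Poisson intervals for numbers of cytosines. They cover counting error only, since neighbouring cytosines are not independent and PCR copies of a molecule were counted without molecular identifiers. Whether an unlisted cytosine lacks the mark is not known.

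5hmC and 5fC are successive products of the TET enzymes, which oxidise 5-methylcytosine. 5fC can be removed by thymine DNA glycosylase and base excision repair, which puts back an unmodified cytosine, whereas 5hmC is the more abundant and longer lived form in embryonic stem cells. A CG dinucleotide carries a cytosine on each strand, and the pair is called a dyad here. Positions are in build mm9 and windows run from the first to the last base given. Genes and base sequences of the windows are not analysed here.

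The poor windows formed the lower tail of a single broad distribution. Over all 97002 windows the summed ratio was 0.420 5fC reads per 5hmC read, and ratios are given relative to this value from here on. The 5th, 50th and 95th percentiles of windows lay at 0.480, 0.924 and 1.48 times. Among poor windows the median was 0.430 times, 3610 of them lay at or under 0.45 times, and 465 at or under 0.3 times. The 3 windows just inside the threshold lay on chromosome 2 from 178600001 to 178610000, chromosome 10 from 85740001 to 85750000 and chromosome 2 from 9490001 to 9500000, with 220, 245 and 216 5fC reads against 1047, 1166 and 1028 5hmC reads. The 3 just outside lay on chromosome 1 from 79830001 to 79840000, chromosome 9 from 75740001 to 75750000 and chromosome 4 from 147230001 to 147240000, with 253, 348 and 269 5fC reads against 1204, 1656 and 1280 5hmC reads. The read ratios of all 6 were 0.210, so the limit falls within a continuous slope.

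Most poor windows had little 5hmC above the minimum. The median poor window held 1258 5hmC reads (5th to 95th percentile 1019 to 2045), against 1939 (1083 to 4083) in the other windows. Of windows with 1000 to 1499 5hmC reads, 14.2% were poor (4343 of 30498). The share was 5.07% from 1500 to 1999 reads, 1.10% from 2000 to 2999 and 0.0842% from 3000 to 4999, and 0 of 1545 windows with 5000 or more reads were poor. The median ratio of all windows rose along the same classes, from 0.758 times at 1000 to 1499 reads to 1.20 times at 5000 or more. Properties of the poor windows are therefore also given beside other windows of equal 5hmC reads, weighted in steps of 100 reads to the distribution of the poor windows and called matched windows.

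**Figure D1:**
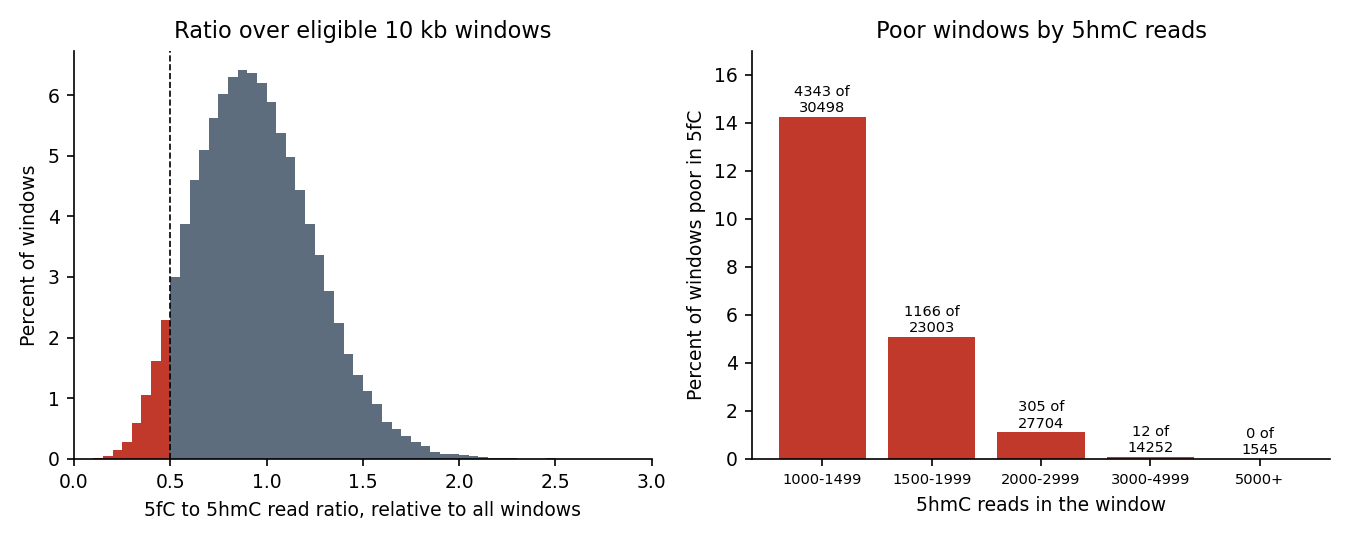
Left, percent of windows with at least 1000 5hmC reads by their 5fC to 5hmC read ratio relative to all such windows, in steps of 0.05, drawn up to 3 times, with poor windows in red. Right, percent of windows that were poor by the number of 5hmC reads in the window, which fell from 14.2% at 1000 to 1499 reads to 0 of 1545 windows at 5000 or more.

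5fC was fewer in cytosines and shallower at each cytosine in the poor windows. The median poor window listed 19 5fC cytosines (5th to 95th percentile 11 to 34) and 116 5hmC cytosines (85 to 176). The median other window listed 48 5fC cytosines (21 to 120) and 146 5hmC cytosines (85 to 270). At matched 5hmC reads the means were 20.3 5fC cytosines in poor windows and 31.9 in matched windows, against 56.4 in all other windows. Summed over windows there were 0.168 5fC cytosines per 5hmC cytosine in poor windows and 0.358 in the other windows, a ratio of 0.469. A listed 5fC cytosine held 11.7 reads on average in poor windows and 16.6 in the other windows, a ratio of 0.706, while a 5hmC cytosine held 11.2 and 13.8 reads, a ratio of 0.812. Thus the lower number of 5fC cytosines was the largest of these 3 terms. Every poor window listed some 5fC: the lowest number was 4 cytosines and the lowest sum 41 reads. 5fC was present in a median of 7 of the 1 kb segments of a poor window and 5hmC in a median of 10, against 9 and 10 in the other windows.

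Few dyads carried 5fC on both strands. Of 86606 dyads with 5fC in poor windows, 9.24% were listed on both strands (interval 9.05 to 9.44%), against 22.6% (22.6 to 22.6%) of 3118807 in the other windows and 18.6% in matched windows. No dyad had 5fC on both strands in 1517 poor windows, or 26.0%, against 1270 of the other windows, or 1.39%. Poor windows held fewer 5fC reads by choice. These numbers and the shares of dyads with 5hmC below were not computed for matched windows or at equal 5fC reads. Of 159565 dyads with 5hmC on both strands, 28.1% had 5fC on at least 1 strand in poor windows, against 51.8% of 3206638 in the other windows. 5fC on both strands was found at 3.73% and 15.7% of them. At dyads with 5hmC on 1 strand the share with any 5fC was 14.6% in poor windows and 31.0% in the other windows.

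The share of 5hmC CG cytosines also listed for 5fC was lower in poor windows in each class of 5hmC reads, and the ratio of the shares was furthest from 1 at shallow cytosines. Among CG cytosines with 2 5hmC reads, 4.11% were also listed for 5fC in poor windows and 11.3% in the other windows, a ratio of 0.362. At 9 to 16 reads the shares were 12.0% and 24.5%, a ratio of 0.488. At 17 to 32 reads they were 25.4% and 42.4%, and above 64 reads 79.5% and 92.3%, a ratio of 0.862. In percentage points the shares lay furthest apart at 33 to 64 reads, at 51.9% and 70.1%. The deepest 5hmC cytosine of the window was also a 5fC cytosine in 68.3% of poor windows and 90.3% of the other windows. If each 5hmC cytosine of a poor window had the mean 5fC reads that cytosines of the same dinucleotide and 5hmC reads had in the other windows, there would be 2692720 5fC reads at these cytosines. The number found was 1123487, or 0.417 times, and the median poor window was at 0.425 times (5th to 95th percentile 0.2496 to 0.535). Without regard to depth and dinucleotide, the summed ratio of poor windows was 0.408 times that of the other windows. Both values describe windows chosen for low 5fC.

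**Figure D2:**
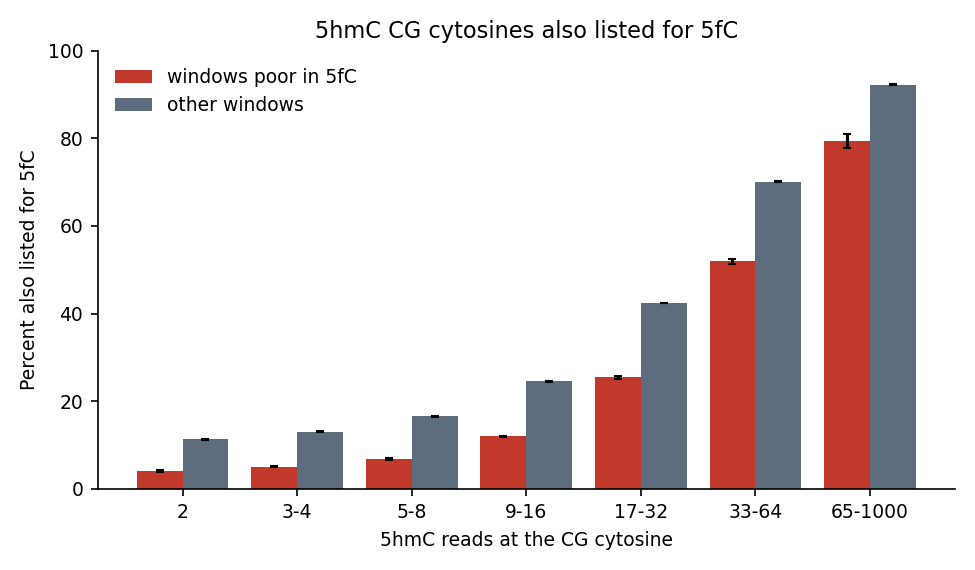
Percent of 5hmC CG cytosines that were also listed for 5fC on the same base and strand (y axis, percent) by their 5hmC reads (x axis), in poor windows (red) and the other windows (grey); bars show the share and error bars the 95% Wilson interval. The poor windows were lower in each class, from 4.11% against 11.3% at 2 reads to 79.5% against 92.3% above 64 reads.

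The deficit was found in each sequence context. Summed 5fC reads per 5hmC read at CG were 0.162 in poor windows and 0.395 in the other windows, a ratio of 0.409. Outside CG, CA had 0.265 and 0.572, CC had 0.267 and 0.591, and CT had 0.362 and 0.756. These non-CG ratios of poor to other windows lay between 0.451 and 0.479, so all 4 contexts were lower, CG the most. CG held 89.7% of the 5hmC reads of poor windows and so weighed most in their choice. Reads of all 4 contexts entered that choice. Neither the low ratio in each context nor the order of CG and the other contexts can be told apart from it. Strands were balanced: the plus strand took 49.9% of 5fC and 50.0% of 5hmC reads in poor windows and 50.0% of each in the other windows.

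5fC cytosines that were listed in poor windows were 5hmC cytosines about as often as elsewhere at CG, and less often outside CG. At CG 84.1% of 5fC cytosines were also listed for 5hmC in poor windows (interval 83.9 to 84.3%), against 83.6% (83.5 to 83.6%) in the other windows. Outside CG the shares were 45.0% (44.4 to 45.7%) and 58.5% (58.4 to 58.6%). 5fC cytosines without 5hmC averaged 4.82 per poor window and 12.9 per other window, where 5fC cytosines of any kind averaged 20.3 and 56.4. Over all contexts, 76.3% of 5fC cytosines in poor windows were also listed for 5hmC, against 76.0% in matched windows. The shares by context were not computed for matched windows.

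The rule did not use the sequence context, strand or spacing of 5hmC, and on these the poor windows differed from windows of equal 5hmC reads. They spread 5hmC over more CG dyads, with fewer reads at each cytosine. They averaged 69.7 dyads with 5hmC, against 59.6 in matched windows, and 121 5hmC cytosines, against 109. Reads per 5hmC cytosine were 11.2 and 12.5. Among windows with 1000 to 1499 5hmC reads the median was 64 dyads in poor windows (5th to 95th percentile 47 to 82) and 56 (39 to 75) in the other windows, so the ranges overlapped widely. From 2000 to 2999 reads the medians were 101 and 87 dyads. Without matching, the order was the reverse, with 69.7 dyads in poor windows and 79.4 in the other windows, which held more 5hmC reads.

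5hmC in poor windows lay more often in CG. CG made up 80.2% of their 5hmC cytosines (interval 80.1 to 80.3%), against 77.0% in matched windows and 72.7% in all other windows. The lower share outside CG held for CA, at 9.83% against 11.5% in matched windows, for CT, at 5.82% against 6.78%, and for CC, at 4.13% against 4.69%. Of non-CG 5hmC cytosines in poor windows, 63.1% had a CG dyad with 5hmC 20 to 23 bases downstream on their strand, against 59.2% in matched windows but 66.0% in all other windows. CG also made up more of the 5fC cytosines, 79.9% in poor windows and 76.5% in matched windows.

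5hmC was spread more evenly along the poor windows than along matched windows, but not than along all other windows. The deepest 1 kb held 24.8% of the 5hmC reads of a poor window and 27.5% of those of matched windows. The deepest single cytosine held 4.42% and 5.22%. Neighbouring dyads with 5hmC were closer together, with a mean of the windows' median gaps of 80.3 bases in poor windows and 92.7 bases in matched windows. Gaps up to 100 bases made up 58.6% of all gaps in poor windows and 55.0% in matched windows. All 4 directions turn without matching: in all other windows the deepest 1 kb held 24.0% of the 5hmC reads, the deepest cytosine 3.78%, the mean of the median gaps was 73.6 bases, and 63.5% of gaps were up to 100 bases.

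Several of these measures ran in order across the classes of the ratio, with the poor windows at the end of the course. At matched 5hmC reads, dyads per window fell from 69.7 in poor windows through 63.7 at 0.5 to 0.75 times and 59.1 at 0.75 to 1 times to 52.0 above 1.5 times. The CG share of 5hmC cytosines fell in the same order from 80.2% to 73.5%, and the share of 5hmC reads in the deepest 1 kb rose from 24.8% to 30.9%. The median gap between dyads was not in order at the upper end, at 101 bases in the class below 1.5 times and 100.3 bases above it. Windows share libraries and are not independent replicates.

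**Figure D3:**
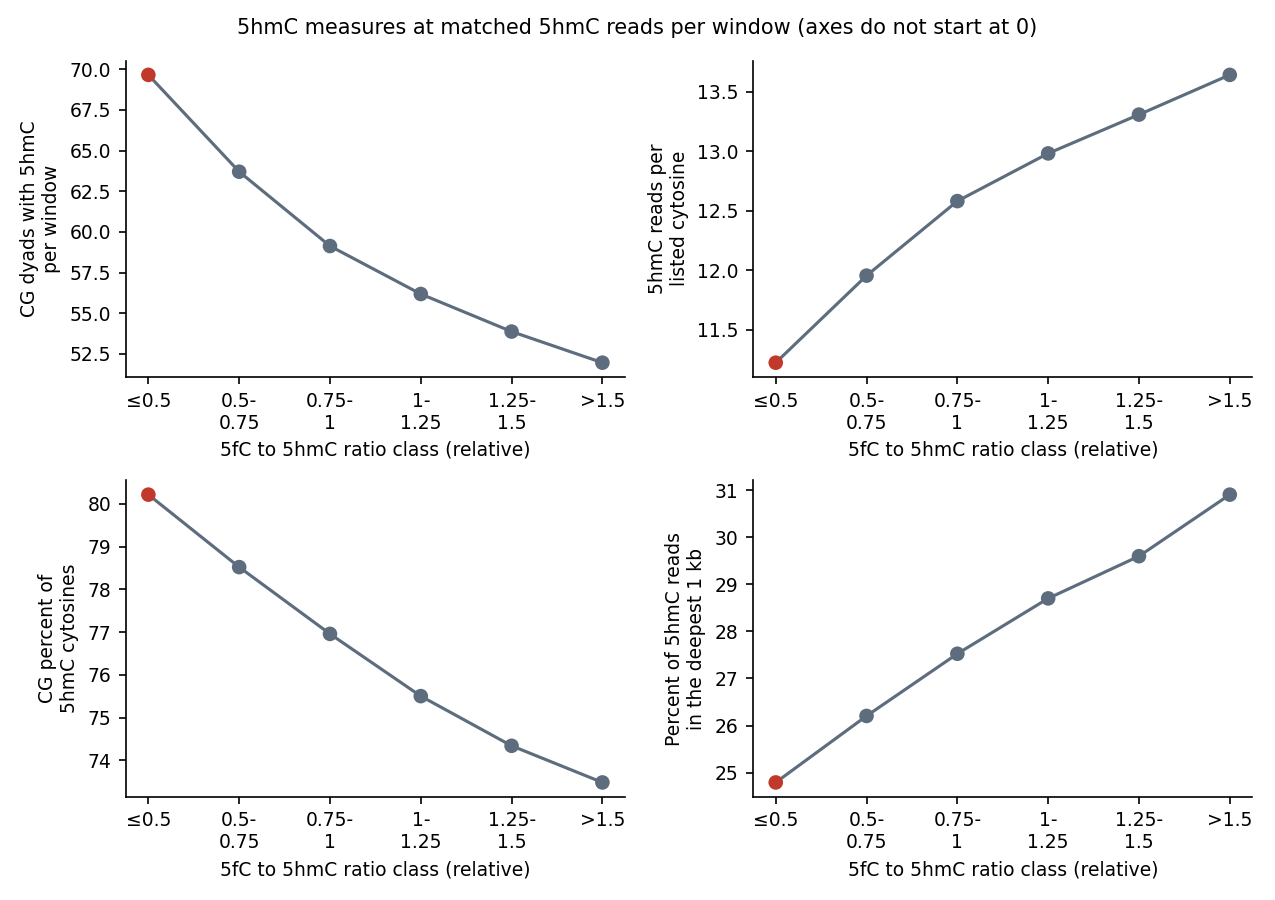
5hmC measures (y axes, with their units) by class of the relative 5fC to 5hmC ratio (x axes), each class weighted to the 5hmC reads of the poor windows, which are the red point at 0.5 or less. From the poor windows to windows above 1.5 times, dyads per window fell from 69.7 to 52.0 and the CG share from 80.2% to 73.5%, while reads per cytosine and the share in the deepest 1 kb rose from class to class.

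Strand pairing of 5hmC depended on how it was compared. Over all dyads, 39.3% of 405809 had 5hmC on both strands in poor windows (interval 39.2 to 39.5%), against 40.6% in matched windows and 44.3% in all other windows. At equal reads per dyad the order turned. Of dyads with 17 to 32 5hmC reads, 62.4% (62.1 to 62.7%) were on both strands in poor windows and 59.2% (59.1 to 59.2%) in the other windows. At 33 to 64 reads the shares were 79.8% and 75.8%, and at 65 to 128 reads 89.6% and 86.7%. At 2 to 4 reads they were 0.684% and 0.668%, with overlapping intervals. Dyads of this shallowest class, which were seldom listed on both strands, numbered 55242 of the 405809 in poor windows and 786198 of the 7237923 in the other windows, a larger part of the poor windows.

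Whether a low ratio in part of the reads was also found in reads that did not choose the window was examined by strand. Windows were chosen by the same rule on plus-strand reads alone, with at least 500 5hmC reads on that strand, which called 8422 of 96907 windows (8.69%). Their ratio was 0.398 times on the plus strand, which chose them, and 0.609 times on the minus strand. On the minus strand 36.8% of the chosen windows were at or under 0.5 times, against 5.95% of the windows not chosen. The median minus-strand ratio was 0.574 times (5th to 95th percentile 0.261 to 1.02) in chosen windows and 0.951 times (0.479 to 1.56) in the rest, so the distributions overlapped. Set against windows not chosen with equal 5hmC reads, the minus-strand ratio of chosen windows was 0.678 times. Thus a low ratio was shared between strands, but less low on the strand that had not chosen the window.

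Choosing on the minus strand gave 0.605 times on the plus strand. Windows chosen on CG cytosines alone, 4921 of 88686 (5.55%), had 0.416 times at CG and 0.630 times outside CG. The held-out cytosines come from the same libraries and the same stretch of DNA and are no replicate.

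**Figure D4:**
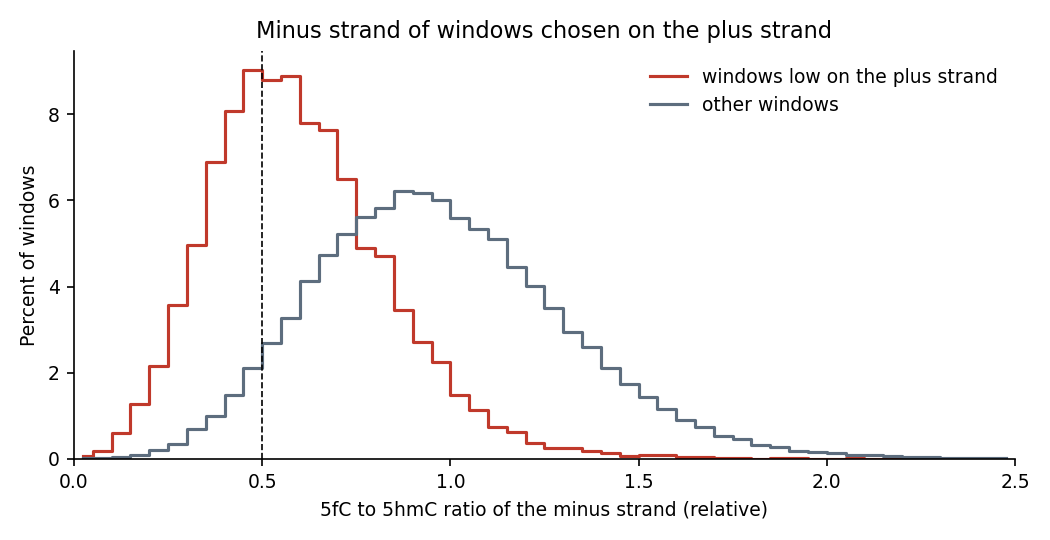
Distribution of the minus-strand 5fC to 5hmC ratio, relative to all windows with at least 500 plus-strand 5hmC reads (x axis), as percent of windows (y axis) for 8422 windows chosen as low on the plus strand (red) and for the rest (grey), drawn up to 2.5 times. The dashed line is 0.5 times; 36.8% of chosen windows and 5.95% of the rest lie at or under it.

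The surroundings of the poor windows were also below the ratio of all windows with at least 1000 5hmC reads. They hold other poor windows, which the rule did choose, and windows with fewer 5hmC reads, which that ratio leaves out. The median ratio was lower in windows with fewer 5hmC reads, so their distance from 1 is not one at equal 5hmC reads. Per 1 kb the summed ratio lay between 0.409 and 0.430 times inside the poor windows, which is the value that chose them. It was 0.767 and 0.793 times in the first 1 kb on either side. Between 40 and 50 kb from the centre it lay between 0.848 and 0.897 times, against 0.987 to 0.996 times at that distance from the other windows. With poor windows left out, windows of any 5hmC reads at 10 kb were at 0.859 times and those at 50 kb at 0.899 times. Neighbours at 50 kb that had at least 1000 5hmC reads and were not poor had 0.956 times the ratio of other windows of equal 5hmC reads. How far a low ratio is confined to the window cannot be read from the step at its edges, since the inside was chosen to be low.

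**Figure D5:**
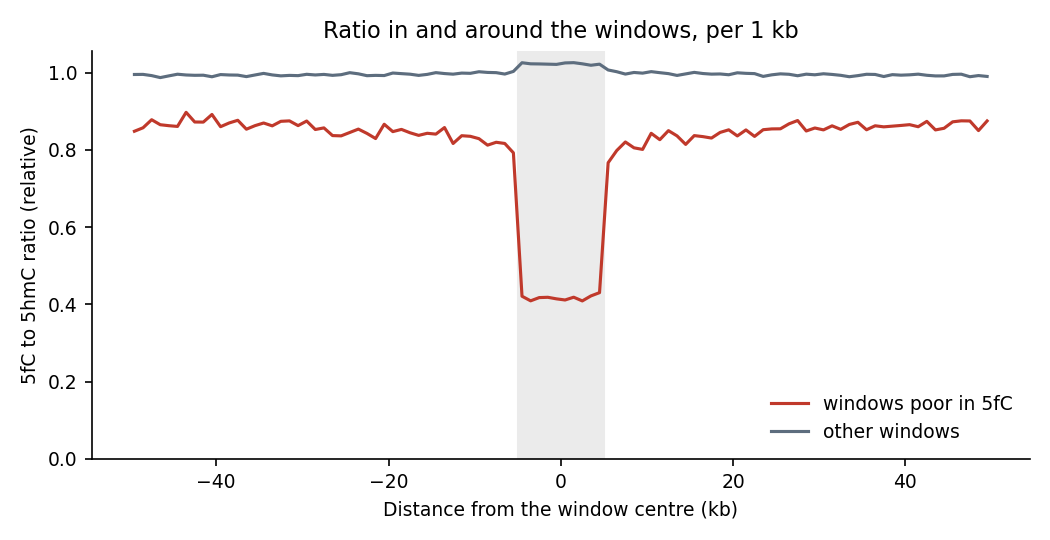
Summed 5fC to 5hmC read ratio per 1 kb, relative to all windows with at least 1000 5hmC reads (y axis), by distance from the window centre (x axis, kb), for poor windows (red) and the other windows (grey); the shaded band is the window. The red line lies between 0.409 and 0.430 times inside the window and between 0.848 and 0.897 times from 40 to 50 kb. The surroundings include other poor windows and windows with fewer than 1000 5hmC reads.

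Poor windows lay near each other more often than the rate at equal 5hmC reads would give. Of the neighbours at 10 kb that had at least 1000 5hmC reads, 12.7% of those of poor windows were poor themselves (1010 of 7947), against 4.64% of those of the other windows. At the rate of all windows with the same 5hmC reads there would be 588 poor neighbours, so the number found was 1.72 times this. The excess was 1.32 times at 100 kb, 1.21 times at 500 kb, 1.06 times at 1000 kb and 1.15 times at 2000 kb, so it did not fade steadily. Neighbours at 10 kb that were not poor themselves had 0.926 times the 5fC to 5hmC ratio of other windows of equal 5hmC reads, and those at 200 kb had 0.981 times.

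Of the 5826 poor windows, 952 (16.3%, interval 15.4 to 17.3%) had a poor window next to them. Neighbours under 1000 5hmC reads could not count as poor, and with a minimum of 500 reads 31.2% of 18215 poor windows had a poor neighbour. They formed 4874 single windows, 395 pairs, 48 runs of 3, 3 runs of 4 and 1 run of 6. They were spread over 4402 blocks of 100 kb, of which 254 held 3 or more. The rest of these blocks, without the poor windows, had 0.895 times the summed ratio, against 0.995 times in 10827 blocks that held windows with at least 1000 5hmC reads but no poor one. These values were not computed at equal 5hmC reads, with which the ratio rises. The 10827 blocks were also picked for holding no poor window. The fullest block, on chromosome 1 from 71800001 to 71900000, held 6 poor windows and had 0.615 times the ratio over its whole length.

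The longest run covered 60 kb on chromosome 14 from 32060001 to 32120000, with 1947 5fC reads at 174 cytosines and 10682 5hmC reads at 957 cytosines. Its 6 windows lay between 0.370 and 0.494 times, and the windows to its left and right were at 0.807 and 1.08 times. In the run 7 dyads had 5fC on both strands, while 199 of 564 dyads with 5hmC had it on both. 5fC was thus low in all 6 windows, and the window to the right of the run was above the ratio of all windows with at least 1000 5hmC reads.

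The 3 runs of 40 kb were similar. Chromosome 12 from 104620001 to 104660000 had 1265 5fC reads against 7060 5hmC reads, at 0.426 times, and both flanking windows were low as well, at 0.589 and 0.512 times. Chromosome 7 from 144780001 to 144820000 had 1136 against 6545 reads, at 0.413 times, with flanks at 0.948 and 0.793 times. Chromosome 12 from 108000001 to 108040000 had 793 against 5071 reads, at 0.372 times, and its lowest window was at 0.216 times. Its flanks were at 0.419 times on the left, with 335 5hmC reads, and 0.950 times on the right. In these 3 runs between 3 and 11 dyads had 5fC on both strands and between 118 and 146 had 5hmC on both strands.

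The 6 windows with the lowest ratios each held a handful of 5fC cytosines among more than 100 5hmC cytosines. On chromosome 15 from 86280001 to 86290000, the lowest, 41 5fC reads at 4 cytosines (interval 1.09 to 10.2) stood against 1111 5hmC reads at 109 cytosines, a ratio of 0.0878 times. On chromosome 11 from 111810001 to 111820000 there were 47 5fC reads at 4 cytosines against 1042 5hmC reads at 108, and on chromosome 9 from 29600001 to 29610000 51 reads at 7 against 1060 at 109. These 3 windows had no dyad listed with 5fC on both strands and between 25 and 28 with 5hmC on both. Chromosome 10 from 53210001 to 53220000 (59 5fC and 1145 5hmC reads), chromosome 12 from 82150001 to 82160000 (61 and 1129) and chromosome 13 from 38790001 to 38800000 (64 and 1182) followed, between 0.123 and 0.129 times. Their 12 neighbouring windows were all below the ratio of all windows with at least 1000 5hmC reads. Several of the 12 held fewer 5hmC reads than that, and some were poor windows themselves. The neighbours of the lowest window were at 0.299 and 0.311 times. The others ran from 0.280 times left of the chromosome 10 window, with 434 5hmC reads, to 0.948 times left of the chromosome 12 window, with 2795.

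In the lowest window all 4 listed 5fC cytosines were also 5hmC cytosines. Its deepest 5hmC cytosine, position 86289077 on the plus strand, was not listed for 5fC and had 46 5hmC reads, while the minus-strand cytosine of the same dyad at 86289078 had 4 5fC and 26 5hmC reads. The cytosines at 86283533 on the minus strand and 86289758 on the plus strand, both in CG, had 17 and 16 5fC reads, and 11 5hmC reads each. The remaining 5fC cytosine, at 86280977 on the plus strand in a CA context, had 4 5fC and 9 5hmC reads. CG cytosines at 86288361, 86284911, 86286588 and 86282502 were not listed for 5fC and had 42, 34, 33 and 29 5hmC reads. The most 5fC reads thus did not lie at the cytosines with the most 5hmC reads.

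At the other end, 6 windows combined a low ratio with 3369 or more 5hmC reads. Chromosome 8 from 72320001 to 72330000 had 888 5fC reads at 75 cytosines (interval 59.0 to 94.0) against 4363 5hmC reads at 279 cytosines, at 0.484 times. Chromosome 18 from 61290001 to 61300000 followed with 753 and 3611 reads, and chromosome 8 from 11810001 to 11820000 with 725 and 3605. Chromosome 15 from 83410001 to 83420000 (714 and 3569), chromosome 17 from 6940001 to 6950000 (715 and 3493) and chromosome 8 from 124810001 to 124820000 (692 and 3369) completed the set. All 6 lay between 0.476 and 0.496 times, close under the threshold, and their CG shares of 5hmC cytosines were between 69.9 and 74.0%. The 12 poor windows with 3000 to 4999 5hmC reads, which include these 6, had a median of 73.0%. The other windows of that class had a median of 68.9%.

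No single deep cytosine made most of these windows. The deepest 5hmC cytosine of a poor window had a median of 56 reads (5th to 95th percentile 37 to 94). Without it, 5516 of the 5826 poor windows remained at or under 0.5 times, and the highest reached 0.595 times.

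Poor windows occurred on every autosome. They made up between 3.77% of windows with at least 1000 5hmC reads on chromosome 11 (292 of 7749, interval 3.37 to 4.22%) and 7.34% on chromosome 18 (238 of 3241, 6.49 to 8.29%). Chromosome 19 was the next lowest, at 4.50% (133 of 2954), and chromosomes 1 and 3 the next highest, at 7.12% and 7.07%. Windows of the chromosomes also differ in 5hmC reads. Against the genome-wide rate at equal 5hmC reads, chromosome 11 had 1.02 times as many poor windows, chromosome 18 had 1.05 times, and chromosome 8 stood highest with 361 poor windows against 255, or 1.42 times. The other 16 autosomes lay between 0.832 times on chromosome 19 and 1.07 times on chromosome 12. Without matching, the share on chromosome 8 was 5.45% (361 of 6622), below the 6.01% of all windows, and its summed ratio was 1.04 times. Its excess thus appears only at equal 5hmC reads. With each chromosome cut into 10 equal lengths, the share of poor windows lay between 5.12% and 6.77%, with no steady course from the centromeric end to the other.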

How the data were processed

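The submitters' processing notes name CASAVA, bcl2fastq, cutadapt, Bowtie and the build mm9. Not given in the sources used here are the listing rule, the libraries summed and how 5fC was told from 5hmC. The authors deposited 2 tables of raw read counts, 1 per listed cytosine. The 5hmC table was taken to belong to passage 14 by its name, although labels of both cultures point to it. Reads were summed in bins of 10 kb after cytosines above 1000 reads in either table were left out, 1.35% of autosomal 5fC and 0.623% of 5hmC reads. These sums are not sequencing depth. Windows named were the 6 lowest, the 6 with most 5hmC reads, the 4 longest runs and 3 on either side of the threshold. The windows and measures were chosen with earlier results of these data known. No gene list or annotation was run, since no mm9 annotation was used here. Counting functions were tested on 400 simulated windows, and all 40 low ones were recovered. Analyses used Python 3.11.15, numpy 2.4.6, pandas 2.3.3, scipy 1.17.1, statsmodels 0.14.6 and matplotlib 3.10.9.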

Additional observations from a re-analysis of the deposited data

Results flagged for a closer look

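Chromosome X was outside the comparisons above and is listed because its windows hold more than 3 reads of each mark, the limit for a count of 0, which background alone would also exceed. It had 262 windows with at least 1000 5hmC reads, with 152095 5fC and 388250 5hmC reads in all. Against the autosomal ratio, 20 of them, or 7.63% (interval 5.00 to 11.5%), lay at or under 0.5 times, against 6.01% of autosomal windows. The median X window was at 0.833 times and held 1187 5hmC reads. Autosomal windows with 1000 to 1499 5hmC reads had a median of 0.758 times, and 14.2% of them were poor, which is above the interval for X. The share on X was not computed at equal 5hmC reads.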

How the results depend on the processing

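No paired analysis was possible because a cytosine has 1 read number for all libraries of a mark. For the same reason leaving out each replicate and the replicate block were not run. The settings below were planned, except the choices on the minus strand or on CG read elsewhere and the level at equal 5hmC reads, which were added after the data were seen. Values are given in the order number of poor windows, relative ratio on the held-out minus strand, CG percent of 5hmC cytosines, percent of 5hmC dyads on both strands, relative ratio of adjacent windows and percent of poor windows with a poor neighbour, which were 5826, 0.609, 80.2%, 39.3%, 0.859 and 16.3% as reported. A threshold of 0.4 times gave 2052, 0.566, 81.3%, 38.5%, 0.817 and 7.70%. A threshold of 0.6 times gave 12495, 0.653, 79.1%, 40.1%, 0.912 and 27.9%. A minimum of 500 5hmC reads gave 18215, 0.583, 83.2%, 36.3%, 0.875 and 31.2%, and one of 2000 reads gave 591, 0.626, 76.0%, 43.1%, 0.836 and 3.21%. Cytosines with at least 10 reads alone gave 3521, 0.660, 77.7%, 41.8%, 0.891 and 9.66%. CG cytosines alone gave 4921 windows, 0.635, 79.9%, 40.05%, 0.855 and 15.0%. With cytosines above 1000 reads kept, the ratios were 0.604 on the held-out strand and 0.856 in adjacent windows, and on a grid shifted by 5 kb they were 0.608 and 0.865, with the other 4 values within counting error or 1.5 times. Choosing on the minus strand gave 0.605 on the plus strand, and choosing on CG gave 0.630 outside CG. Of the 5826 poor windows, 4936 were at most 0.5 times the level at equal 5hmC reads and dinucleotide. In all of these settings the held-out ratio stayed below 1. The adjacent ratio did so too, but it sets windows of any 5hmC reads against windows above the minimum. Among windows with at least 1000 5hmC reads the ratio was lower at fewer reads, so an adjacent value below 1 was likely in advance. Against other windows of equal 5hmC reads in place of all other windows, the difference of poor minus other windows turned from -9.73 to 10.1 dyads and from -36.5 to 12.2 5hmC cytosines per window. It was -1.28 in place of -2.60 reads per cytosine, 3.21 in place of 7.47 percentage points of CG, and -1.24 in place of -4.98 points of dyads on both strands. For named windows, leaving out the deepest 5hmC cytosine or all non-CG cytosines moved 0 of 72 ratios beyond the Poisson interval of their 5fC cytosines. Such intervals are wide, from 1.09 to 10.2 for the 4 cytosines of the lowest window, so this comparison could hardly have come out otherwise. With a median of 19 5fC cytosines per poor window, counting error limits what can be said of any single one.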
